A study of Mus musculus with 12 samples.

Results

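The genes described here are 10 markers of the mural cells of blood vessels, followed in bulk RNA of mouse ventricle. They comprise 6 pericyte genes (Rgs5, Abcc9, Pdgfrb, Cspg4, Notch3 and Mcam) and 4 smooth muscle genes (Myh11, Acta2, Tagln and Cnn1). They were taken by exact gene symbol from the 54949 features of the count table, and all 10 were found there. The filter on low counts kept 15114 features for testing, among them 9 of the 10 genes. Tagln was removed by it.

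Pericytes lie on capillaries within the basement membrane of the endothelium, and are recruited there by PDGF-B from endothelial cells acting on the receptor encoded by Pdgfrb. Vascular smooth muscle cells ring arteries and arterioles and contract through a smooth muscle myosin sliding on actin. The cell types share a lineage and several markers, so that Pdgfrb, Notch3 and Mcam also mark smooth muscle cells, Abcc9 is also expressed by cardiomyocytes, and Mcam by endothelial cells.

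The study set mice with HFpEF (heart failure in which the ejection fraction is preserved), made by a high-fat diet with the nitric oxide synthase inhibitor L-NAME at 0.5 g/L, against control mice. All mice were wild-type C57BL/6N males, 8 weeks old at the start and killed after 5 weeks, and the atria were removed. The HF-named group has 6 libraries, called HF-1 to HF-6, whose titles and treatment labels give control mice on normal diet and water. The con-named group has 6 libraries, called con-1 to con-6, whose titles and treatment labels give the HFpEF model. The library names and the other labels thus contradict each other in every sample, and which group was treated cannot be told from them. Groups follow the library names, and every fold change is HF-named over con-named. The design text gives 5 samples per group and the labels 6. Whether every library is a separate mouse is not stated, so p-values measure only the spread between these samples, which may be technical.

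Libraries held 14443186 to 22048689 counts, so that the limit a count of 0 allows (3 counts, covering counting error only) was 0.136 to 0.208 CPM (counts scaled to one library size). The summed level of 10 cardiomyocyte markers was 67900 to 75800 CPM in HF-named libraries and 65100 to 73600 CPM in con-named libraries, the highest sum of any marker list. Library HF-1 stood apart in genes of atrial muscle. It held 27 counts of Myl7, the atrial myosin light chain, against 0 to 16 in the other HF-named and 0 to 4 in the con-named libraries. It also held 16 counts of Sln against 0 to 3 elsewhere, and 188 CPM of Nppa against 21.8 to 126 CPM elsewhere. The other genes of the list did not all follow. Myl4 was highest in HF-1 (63 counts, against 12 to 42 elsewhere), while Dkk3 had 25 counts in HF-1, against 16 to 29 in the other HF-named and 27 to 89 in the con-named libraries, and Bmp10 had 0 or 1 count in every library.

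The smooth muscle genes differ in what bears on read assignment, and the stretches concerned are shown first. The coding sequence of Tagln lies on the minus strand of chromosome 9, and the antisense gene Gm48529 covers all 603 of its coding bases with its own exons (GENCODE M21, mm10). The library protocol names no step that marks strand, and the strand setting of the read counting is not given. Whether reads from the pair were told apart is therefore not known. The first 90 coding bases, at chr9:45931672-45931761 on the minus strand, are printed 5′ to 3′ with the start codon in capitals, and each of the 90 lies opposite an exon of Gm48529.
Tagln: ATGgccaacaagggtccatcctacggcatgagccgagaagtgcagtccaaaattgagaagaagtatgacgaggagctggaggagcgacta

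Acta2 has the opposite case. Its coding sequence resembles those of the actins of cardiac muscle (Actc1) and skeletal muscle (Acta1), and Actc1 was present at 6500 to 8280 CPM in HF-named and 6940 to 7880 CPM in con-named libraries. The 90-base window in which Acta2 and Actc1 differ least, coding bases 706 to 795, is printed below 5′ to 3′, with capitals at bases that differ from Acta2.
Acta2: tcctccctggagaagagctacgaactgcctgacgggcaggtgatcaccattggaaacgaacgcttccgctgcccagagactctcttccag
Actc1: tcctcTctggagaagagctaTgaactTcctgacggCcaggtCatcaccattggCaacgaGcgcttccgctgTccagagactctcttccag
Acta1: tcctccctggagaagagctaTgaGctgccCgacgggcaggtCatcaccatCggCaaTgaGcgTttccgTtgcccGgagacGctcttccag
Even there 8 bases differ in Actc1 and 12 in Acta1. Over the 1131 coding bases, identity with Acta2 was 82.6% for Actc1 and 85.4% for Acta1, and the longest identical runs were 23 and 29 bases. No run of 50 bases was shared at the same position. Of the 2146 distinct 50-base runs of the Acta2 transcripts, 7 (0.326%) occurred in another gene, the pseudogene Actg-ps1.

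Levels between genes were compared per length, from the deposited FPKM values over all 12 libraries. Rgs5 was the highest, at 147 ± 13.2 FPKM (SD, n = 12). Acta2, at 45.9 ± 15.7 FPKM, and Abcc9, at 44.3 ± 3.96 FPKM, came next and overlapped. Pdgfrb (16.9 ± 2.12 FPKM) overlapped with Mcam (16.7 ± 3.65 FPKM), and Notch3 (9.48 ± 0.949 FPKM) overlapped with Myh11 (8.84 ± 1.89 FPKM). Cspg4 followed at 3.27 ± 0.515 FPKM. Cnn1 (0.529 ± 0.191 FPKM) and Tagln (0.206 ± 0.0862 FPKM) were the lowest and overlapped. The 4 smooth muscle genes thus ran from second place to last, and the pericyte genes from first to eighth. Last place rests on Tagln, and whether its reads were told apart from those of Gm48529 is not known. The Acta2 value divides by 1781 bases, fewer than the 2196 exon bases of GENCODE M21.

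**Figure D1:**
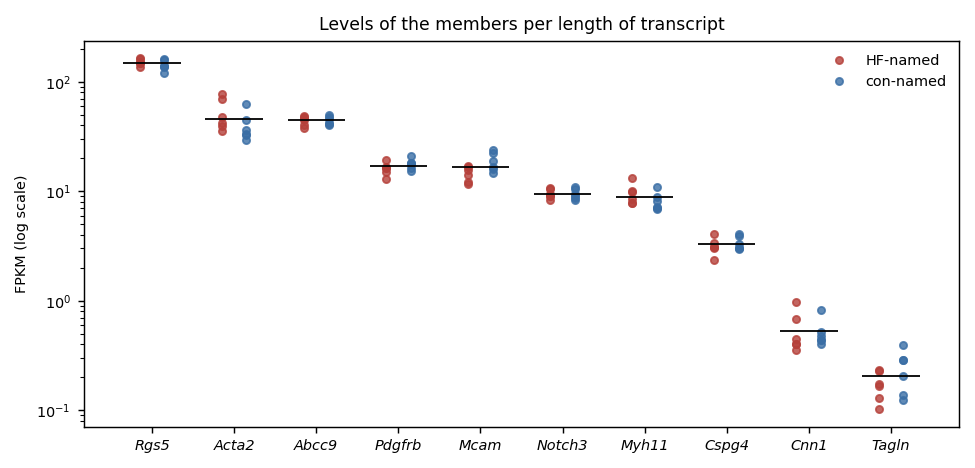
Level of each gene per length of transcript (FPKM, log axis) in the 12 libraries, with HF-named points left of con-named points and a bar at the mean of all 12. Rgs5 lies between 121 and 164 FPKM, and Tagln and Cnn1 lie below 1 FPKM in every library.

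The HF-named libraries were compared with the con-named ones to ask whether mural cell genes differ between the groups. None of the 9 tested genes passed edgeR's quasi-likelihood test at an adjusted p of 0.05, against 13.3% of all genes tested (2016 of 15114, 8.28% higher and 5.05% lower). At an unadjusted p of 0.05, 4 of the 9 passed (Rgs5, Mcam, Myh11 and Acta2), against 28.6% of all genes. DESeq2 called 2 (Rgs5 and Myh11), against 17% of the 13921 genes to which it gave an adjusted p. The limma-voom fit called Rgs5, against 13.6% of all genes tested. The groups overlapped in all 10 genes, while they did not overlap in 5.36% of all genes tested. In bulk RNA, a different number of cells of a type and a different amount of RNA per cell cannot be told apart.

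Rgs5 encodes a GTPase-activating protein that shortens G protein signalling in pericytes. Its lowest, median and highest values were 691, 717 and 753 CPM in HF-named libraries, against 537, 625 and 709 CPM in con-named libraries. In the HF-named group 3 libraries exceeded every con-named one, and 5 of 6 con-named libraries lay below every HF-named one. Means were 718 ± 22.6 CPM in HF-named and 625 ± 65.2 CPM in con-named libraries (SD, n = 6 each). The log2 fold change was 0.20 (SE 0.0641, 95% interval 0.0629 to 0.334). The adjusted p was 0.0504 in edgeR, 0.0218 in DESeq2 and 0.0393 in limma-voom. The authors' deposited table gives Rgs5 a log2 fold change of 0.20 with an adjusted p of 0.0471, and of the 10 genes it is the only one under 0.05 there, against 5.11% of all genes in that table. Without con-2 the edgeR adjusted p was 0.0422, and without con-6 it was 0.0321. Under library totals in place of TMM scaling the log2 fold change was 0.09 (adjusted p 0.375). The spread was narrow in the HF-named group, with a coefficient of variation of 3.15%, against 10.4% in the con-named group, where counting error alone gives 0.917% and 0.949%.

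Abcc9 encodes the sulfonylurea receptor SUR2, the regulatory subunit of ATP-sensitive potassium channels in pericytes and heart muscle. It had 315, 404 and 434 CPM (lowest, median, highest) in HF-named libraries, against 309, 353 and 410 CPM in con-named libraries. The ranges nearly coincided, with means of 386 ± 44.5 and 359 ± 36.4 CPM and a log2 fold change of 0.11 (SE 0.081, adjusted p 0.414), which was -0.01 under library totals.

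The channel's other subunits were measured as well. Kcnj8, the pore subunit of pericytes and smooth muscle, had a log2 fold change of -0.05 (SE 0.0588, adjusted p 0.621), and Abcc8, the alternative receptor, -0.01 (adjusted p 0.956). Kcnj11, the pore subunit of cardiomyocytes, rose to 187 ± 10.7 CPM in HF-named libraries, against 163 ± 10.9 CPM in con-named libraries (log2 fold change 0.20, SE 0.0544, adjusted p 0.024). It was the only one of these 3 subunits called (33.3%, against 13.3% of all genes tested). Its adjusted p was up to 0.0661 without HF-2, HF-4, HF-5, con-5 or con-6. It was 0.067 without the filter on low counts and 0.229 under library totals (log2 fold change 0.08).

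Pdgfrb, the PDGF receptor through which pericytes are recruited (chromosome 18, 61045150 to 61085061, plus strand), had 79.0, 90.3 and 108 CPM in HF-named libraries, against 82.0, 93.8 and 106 CPM in con-named libraries. The groups lay on top of each other, with means of 91.6 ± 9.51 and 93.3 ± 8.49 CPM and a log2 fold change of -0.03 (95% interval -0.18 to 0.12, adjusted p 0.837). That interval corresponds to between 0.883-fold and 1.09-fold. Of 10 other genes of the PDGF pathway, 1 rose and 0 fell (10%, against 13.3% of all genes tested), with a median log2 fold change of -0.07 against -0.01 over all genes tested. Ptpn11, the phosphatase SHP2 that acts below several receptors, rose to 280 ± 20.8 CPM in HF-named libraries, against 208 ± 15.7 CPM in con-named libraries (log2 fold change 0.43, SE 0.0615, adjusted p 7.92e-04), with 6 of 6 HF-named libraries above all con-named ones. Pdgfb, the ligand, had a log2 fold change of -0.23 (adjusted p 0.227).

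Cspg4 encodes NG2, a proteoglycan of the pericyte surface. It had 30.9, 38.5 and 49.4 CPM in HF-named libraries, against 34.6, 37.2 and 44.6 CPM in con-named libraries. The HF-named group held both the highest library (HF-1) and the lowest (HF-5), and the log2 fold change was 0.01 (SE 0.0937, adjusted p 0.939), which was -0.10 under library totals and -0.06 without HF-1.

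Notch3, the Notch receptor of mural cells, had 73.5, 76.7 and 87.5 CPM in HF-named libraries, against 66.9, 73.0 and 81.7 CPM in con-named libraries. HF-1 and HF-2 lay above all con-named libraries and 3 con-named libraries lay below all HF-named ones, but the other libraries were mixed. The log2 fold change was 0.11 (SE 0.0613, adjusted p 0.257), and -0.01 under library totals. The antisense gene Gm17276 covers 6.03% of its exon bases.

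Of 14 other genes of the Notch pathway, 0 rose and 1 fell (7.14%, against 13.3% of all genes tested), and 2 had a positive log2 fold change, with a median of -0.13. The gene that fell was Nrarp, a target that damps Notch signalling, at 1.36 ± 0.542 CPM in HF-named and 2.39 ± 0.548 CPM in con-named libraries (log2 fold change -0.79, SE 0.251, adjusted p 0.0463). An antisense gene covers 79.4% of its exon bases, and it no longer passed without HF-1, HF-2, HF-4, HF-5, con-2, con-3, con-4 or con-5, with an adjusted p of up to 0.101. The ligands Jag1 (-0.08, adjusted p 0.555) and Dll4 (-0.31, adjusted p 0.122) did not pass.

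Mcam encodes CD146, an adhesion molecule of mural and endothelial cells, and stood on the opposite side. It had 41.8, 52.2 and 56.4 CPM in HF-named libraries, against 49.6, 58.5 and 74.1 CPM in con-named libraries. Of the HF-named libraries 2 lay below all con-named ones, and 3 con-named libraries lay above all HF-named ones. The mean was 50.7 ± 6.16 CPM in HF-named and 60.4 ± 9.59 CPM in con-named libraries, a log2 fold change of -0.26 (SE 0.0989, 95% interval -0.47 to -0.05, adjusted p 0.0961). Under library totals it was -0.37 with an adjusted p of 0.0402, while the median of all genes was -0.13 there.

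Beside Mcam, endothelial markers also differed between the groups, and their part in the Mcam value was not tested. Of 10 endothelial markers, 0 rose and 4 fell (40% lower, against 5.05% of all genes tested), none had a positive log2 fold change, their median log2 fold change was -0.29, and their summed level was 1290 to 1960 CPM in HF-named and 1640 to 2100 CPM in con-named libraries. Vwf, the von Willebrand factor, fell to 45.3 ± 13.1 CPM in HF-named libraries, against 93.5 ± 14.3 CPM in con-named libraries (log2 fold change -1.04, SE 0.148, adjusted p 7.92e-04). The other 3 were Emcn (-0.34), Kdr (-0.46) and Cav1 (-0.36), and each failed the test in at least 8 of the 12 fits made with a library left out. The most abundant endothelial marker, Fabp4, had 480 ± 74.9 CPM in HF-named and 547 ± 62.4 CPM in con-named libraries (log2 fold change -0.19, adjusted p 0.199, and 0.0195 without HF-3).

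**Figure D2:**
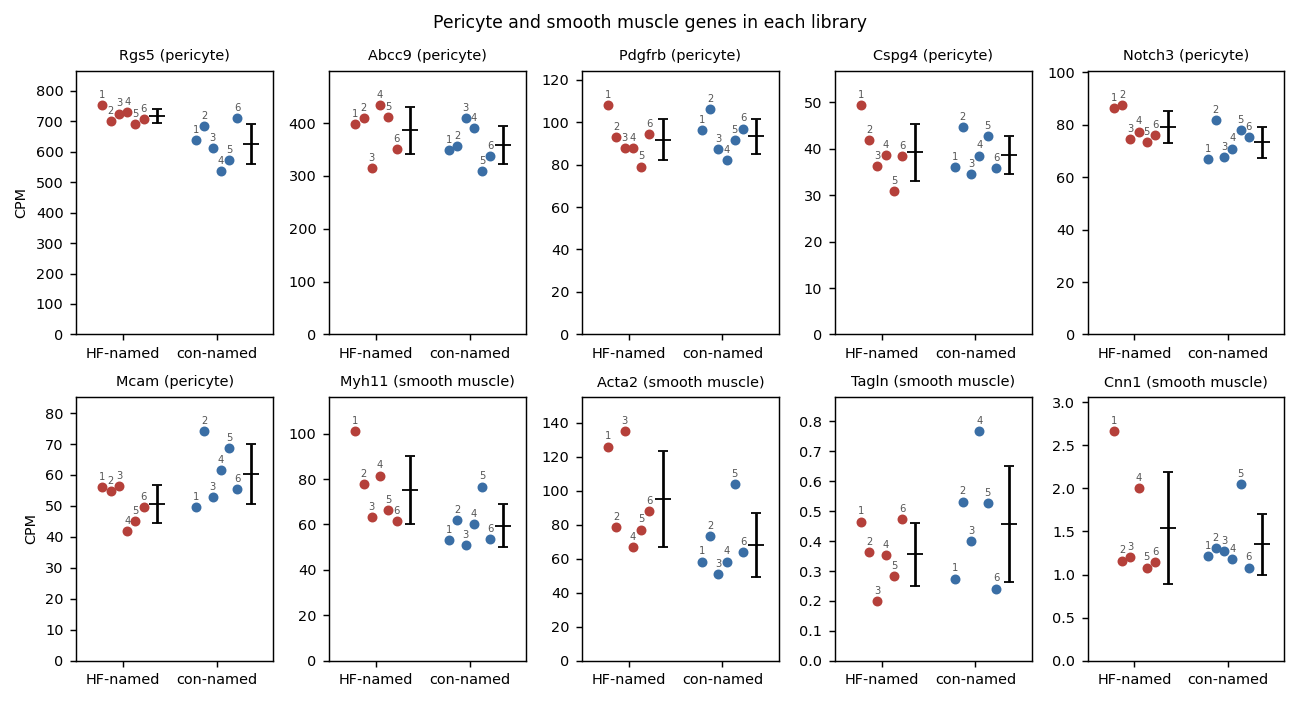
CPM of each of the 10 genes in each library (numbers are replicate numbers, red HF-named, blue con-named, bars mean ± SD, n = 6 each, axes from 0). For Rgs5, 5 of 6 con-named libraries lie below all HF-named ones, while Pdgfrb and Cspg4 coincide between the groups and HF-1 is the highest library for Rgs5, Pdgfrb, Cspg4, Myh11 and Cnn1.

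Myh11 encodes the smooth muscle myosin heavy chain, the most specific marker of contractile smooth muscle among these genes (chromosome 16, 14194535 to 14291372, minus strand). It had 61.6, 72.1 and 101 CPM in HF-named libraries, against 50.9, 56.9 and 76.7 CPM in con-named libraries. Of the HF-named libraries 3 lay above all con-named ones, and 4 con-named libraries lay below all HF-named ones. Means were 75.3 ± 15 CPM in HF-named and 59.4 ± 9.51 CPM in con-named libraries (SD, n = 6 each). The log2 fold change was 0.34 (SE 0.119, 95% interval 0.09 to 0.59). The adjusted p was 0.068 in edgeR and 0.0377 in DESeq2. It was 0.0395 without HF-3, 0.0442 without HF-6 and 0.0318 without con-5, and it was 0.14 without HF-1, where the log2 fold change was 0.24. Under library totals the log2 fold change was 0.22 (adjusted p 0.241).

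Acta2 encodes smooth muscle α-actin, which myofibroblasts also express (chromosome 19, 34241090 to 34255590, minus strand). It had 66.9, 83.3 and 135 CPM in HF-named libraries, against 51.2, 61.2 and 104 CPM in con-named libraries. HF-3 (135 CPM) and HF-1 (126 CPM) lay above all con-named libraries, con-5 (104 CPM) was the third highest, and 4 con-named libraries lay below all HF-named ones. The mean was 95.3 ± 28.3 CPM in HF-named and 68.1 ± 18.8 CPM in con-named libraries, a log2 fold change of 0.48 (SE 0.182, 95% interval 0.10 to 0.86, adjusted p 0.09). This was the largest log2 fold change among the 9 tested genes. Without con-5 it was 0.63 with an adjusted p of 0.0297, without HF-1 it was 0.39 (adjusted p 0.18) and without HF-3 0.36 (adjusted p 0.169). DESeq2 gave an adjusted p of 0.125, and library totals gave 0.37 (adjusted p 0.206). The coefficient of variation was 29.7% in HF-named and 27.7% in con-named libraries, against 2.53% and 2.85% from counting error.

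Cnn1 encodes calponin, an actin-binding protein of contractile smooth muscle. It had 1.08, 1.18 and 2.66 CPM in HF-named libraries (16 to 40 counts), against 1.08, 1.24 and 2.05 CPM in con-named libraries (18 to 39 counts). In each group most libraries lay close together, with HF-1 and HF-4 high in HF-named and con-5 high in con-named. The log2 fold change was 0.17 (SE 0.249, 95% interval -0.36 to 0.70, adjusted p 0.698), and -0.04 without HF-1. The interval spans 0.782-fold to 1.62-fold. The coefficient of variation was 42.1% in HF-named and 26.1% in con-named libraries, against 19.9% and 20.3% from counting error.

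Tagln encodes transgelin (SM22α), an actin-binding protein. It had 3 to 10 counts in HF-named and 4 to 13 counts in con-named libraries, with means of 0.356 ± 0.105 and 0.457 ± 0.195 CPM. The difference of -0.101 CPM had a p of 0.305 in a two-sided exact permutation test of the group labels. These counts stand beside the overlap shown above: exons of other genes cover 67.9% of its exon bases, and Gm48529 itself had 8 to 17 counts in HF-named and 8 to 15 in con-named libraries. Of the 1983 distinct 50-base runs of Tagln transcripts, 1157 (58.3%) occur on the opposite strand of another gene's transcripts. No exons of other genes overlap those of Myh11, Acta2 or Cnn1, whose mean levels over the 12 libraries were 8.84, 45.9 and 0.529 FPKM. The part of the overlap in the low Tagln count was not tested.

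Read as groups, the pericyte genes had a median log2 fold change of 0.06 over 6 tested genes, 4 of them positive, and the smooth muscle genes one of 0.34 over 3 tested genes, all 3 positive. The median over all genes tested was -0.01. Under library totals these medians were -0.05, 0.22 and -0.13. Of the calls over all genes, 15.8% were higher in HF-named libraries under library totals, against 62.1% under TMM scaling. Signs near 0 thus depend on the scaling. Tagln was not among the 3 tested smooth muscle genes. Without the filter on low counts it had a log2 fold change of -0.35 (SE 0.36, adjusted p 0.594). The smooth muscle median was 0.252 there. With 1 library left out, the pericyte median ran from 0.0112 (without HF-1) to 0.0809 (without HF-3), and the smooth muscle median from 0.238 (without HF-1) to 0.416 (without con-5). Without HF-1 the log2 fold changes were 0.185 for Rgs5, 0.0991 for Abcc9, -0.0783 for Pdgfrb, 0.0836 for Notch3, -0.288 for Mcam and 0.385 for Acta2, and none of the 9 genes passed. The difference between the groups of genes was not tested. The summed level of the 6 pericyte genes was 1290 to 1450 CPM in HF-named and 1160 to 1350 CPM in con-named libraries, most of it Rgs5 and Abcc9, and that of the 4 smooth muscle genes was 145 to 230 CPM in HF-named and 104 to 183 CPM in con-named libraries.

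**Figure D3:**
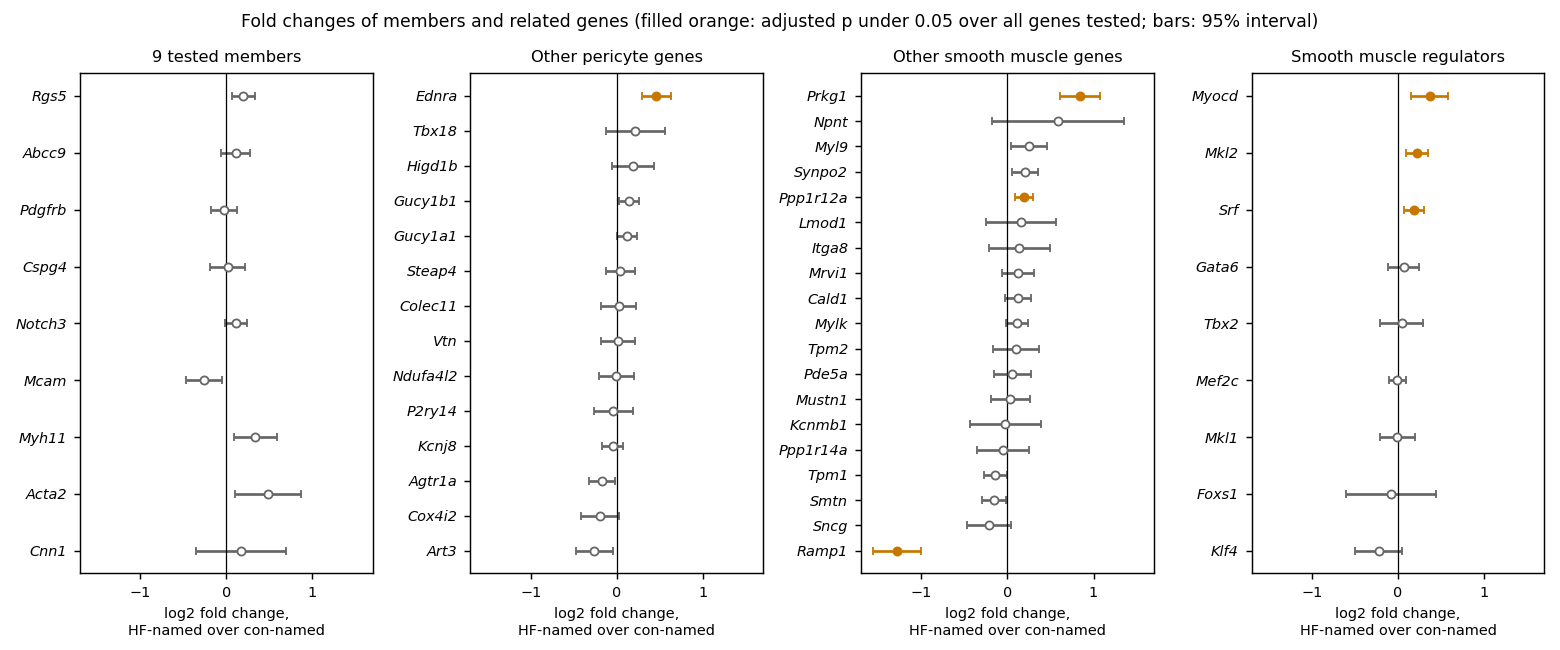
Log2 fold change, HF-named over con-named, of the 9 tested genes and of genes from 3 related lists, with 95% intervals and filled orange points where the adjusted p over all genes tested is under 0.05. No point among the 9 is filled, and the filled points are Ednra, Prkg1, Ppp1r12a, Ramp1, Myocd, Mkl2 and Srf.

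Related genes outside the 10 were read from lists of pericyte and smooth muscle biology. Of 15 other pericyte genes, 1 rose and 0 fell (6.67%, against 13.3% of all genes), with a median log2 fold change of 0.02. Ednra, the endothelin A receptor through which endothelin-1 contracts mural cells, rose to 38.1 ± 5.4 CPM in HF-named libraries, against 27.7 ± 1.5 CPM in con-named libraries (log2 fold change 0.46, SE 0.0824, adjusted p 0.00276), and 6 of 6 HF-named libraries exceeded every con-named one. Both subunits of soluble guanylate cyclase, the receptor for nitric oxide, did not pass, with Gucy1a1 at 0.12 (adjusted p 0.178) and Gucy1b1 at 0.14 (adjusted p 0.102).

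Of 20 other smooth muscle genes, 19 were tested, 2 rose and 1 fell (15.8%, close to the 13.3% of all genes tested), with a median log2 fold change of 0.11. Prkg1, the cGMP-dependent kinase that relaxes smooth muscle, rose to 9.24 ± 1.54 CPM in HF-named libraries, against 5.14 ± 0.156 CPM in con-named libraries (log2 fold change 0.84, SE 0.107, adjusted p 5.36e-04). Ppp1r12a, the subunit that directs myosin phosphatase to myosin, rose to 83.9 ± 5.82 CPM in HF-named libraries, against 73.3 ± 2.91 CPM in con-named libraries (log2 fold change 0.19, SE 0.0505, adjusted p 0.0195). Ramp1, a partner of the receptor for the vasodilator peptide CGRP, fell to 6.87 ± 1.26 CPM in HF-named libraries, against 16.8 ± 3.09 CPM in con-named libraries (log2 fold change -1.28, SE 0.131, adjusted p 1.18e-04). The groups did not overlap in Prkg1 and Ramp1, while Ppp1r12a did not pass under library totals (log2 fold change 0.08, adjusted p 0.341). None of these 3 is restricted to smooth muscle, and the structural genes of the contractile apparatus on the list did not pass. Among these, Myl9, the regulatory myosin light chain, had 0.26 (adjusted p 0.0969), Synpo2 0.21 (adjusted p 0.0683) and Lmod1 0.16 (adjusted p 0.631). Smtn, smoothelin, ran the other way, with 224 ± 10.7 CPM in HF-named and 250 ± 27.2 CPM in con-named libraries (log2 fold change -0.16, adjusted p 0.113). Tpm1, which heart muscle also expresses strongly, had -0.14 (adjusted p 0.146).

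Of 11 regulators of smooth muscle transcription in the table, 9 were tested, 3 rose and 0 fell (33.3%, against 13.3% of all genes tested), with a median log2 fold change of 0.04. Srf, the serum response factor that drives Myh11, Acta2, Tagln and Cnn1, rose to 61.5 ± 3.67 CPM in HF-named libraries, against 54.1 ± 3.97 CPM in con-named libraries (log2 fold change 0.18, SE 0.0559, adjusted p 0.0389). Its coactivators Myocd (0.37, SE 0.103, adjusted p 0.0272) and Mkl2 (0.22, SE 0.0598, adjusted p 0.0232) rose as well. All 3 are also expressed in heart muscle. Mkl1 (-0.01, adjusted p 0.971) and Klf4, a repressor of the contractile genes (-0.22, adjusted p 0.266), did not pass. With 1 library left out, the adjusted p of Mkl2 was up to 0.0622 (without HF-1, HF-2, HF-5 or con-5) and that of Myocd up to 0.07 (without HF-1, HF-2, HF-5, con-1, con-5 or con-6). That of Srf was up to 0.0893, and among these fits it passed only without HF-3 or con-2. Under library totals none of the 3 passed, with log2 fold changes of 0.06 for Srf (adjusted p 0.492), 0.25 for Myocd (adjusted p 0.0892) and 0.10 for Mkl2 (adjusted p 0.208).

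A list for the angiopoietin pathway, by which pericytes steady the endothelium, held Angpt1, Angpt2, Tek, Tie1, Ptprb and the angiopoietin-like Angptl4. Of these 6 genes 0 passed, against 13.3% of all genes tested, and none had a positive log2 fold change (median -0.24). Tie1 is also on the list of endothelial markers, so the 2 lists are not independent. Angpt1, the ligand made by mural cells, had 31.7 ± 4.78 CPM in HF-named and 39.3 ± 9.41 CPM in con-named libraries (log2 fold change -0.30, SE 0.131, adjusted p 0.134). It was -0.17 without con-4 (adjusted p 0.299) and -0.42 under library totals, where it passed (adjusted p 0.0275). An antisense gene covers 14.2% of its exon bases.

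Markers of other cell types moved between the groups too, and their part in the values above was not tested. Of all genes tested, 8.28% rose and 5.05% fell. Of 10 fibroblast markers 0 rose and 4 fell (40%), with summed levels of 1220 to 1490 CPM in HF-named and 1490 to 1910 CPM in con-named libraries. The 4 were Gsn, Dcn, Dpt and Tcf21, and Dcn had 234 ± 21.9 CPM in HF-named and 297 ± 27 CPM in con-named libraries (log2 fold change -0.35, adjusted p 0.00519). Of 10 macrophage markers 0 rose and 3 fell (30%: Lyz2, Csf1r and Mrc1), with sums of 202 to 271 CPM in HF-named and 240 to 325 CPM in con-named libraries. Of 10 cardiomyocyte markers 2 rose (Ttn and Ryr2) and 4 fell (60% in all), among them Myl2, Tnni3 and Tnnt2, while the most abundant, Myh6, had a log2 fold change of 0.13 (adjusted p 0.243). Tcf21, Csf1r, Mrc1 and Tnnt2 each failed the test in 8 to 10 of the 12 fits made with a library left out. None of the 3 tested atrial, 4 tested Schwann cell or 1 tested mesothelial markers passed, and their genes of smallest p were Dkk3 (adjusted p 0.0728), Mbp (0.141) and Wt1 (0.624). Dkk3 passed without con-2 (0.0495), in DESeq2 (0.0488) and under library totals (0.0404), and had a log2 fold change of -0.41 without con-5, against -0.72 with it. Mbp passed under library totals (0.0427). Of 5 adipocyte markers none was tested, and 4 had at most 3 counts in any library.

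**Figure D4:**
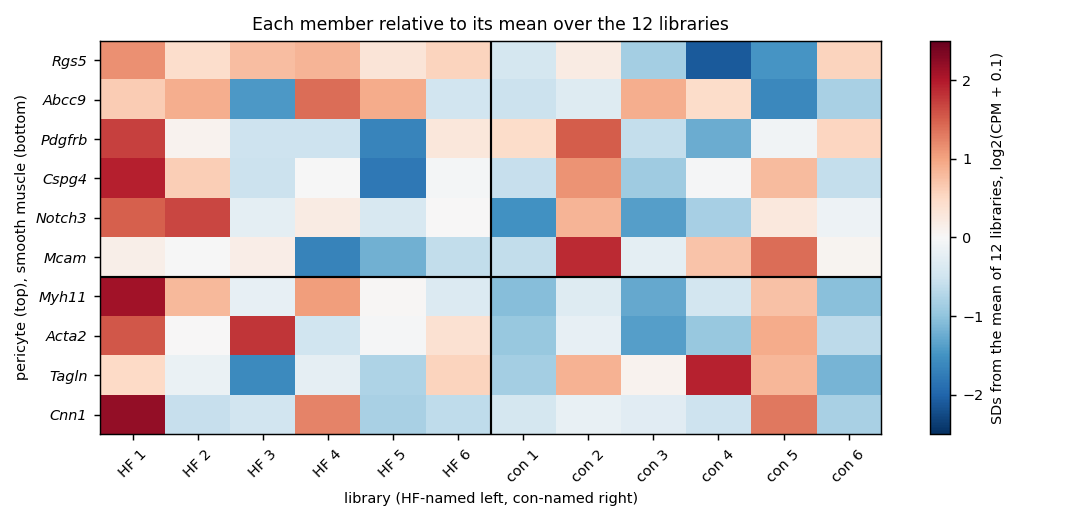
Each gene in each library in SDs from its mean over the 12 libraries, on log2(CPM + 0.1), with HF-named libraries left and con-named right. HF-1 is red in all rows except Mcam, where it is near the mean, and con-5 is blue for Rgs5 and Abcc9 but red for Mcam and the smooth muscle genes.

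How the genes varied together was described over the 12 libraries, without a test. For the 15 pairs of pericyte genes, Pearson's r of log2 CPM had a median of 0.267 and ran from -0.529 (Abcc9 with Mcam) to 0.745 (Pdgfrb with Cspg4). For the 3 pairs of tested smooth muscle genes it was 0.437 to 0.788, and for the 18 pairs across the cell types the median was 0.318. Pairs within the pericyte genes were thus not closer than pairs across the cell types. These r values share libraries, depth and the groups themselves.

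Cspg4 and Notch3 kept together most evenly, with r of 0.741 and Spearman's rho of 0.804. Their r was 0.827 after the group means were removed and 0.774 without the 2 farthest libraries. Farthest here means from the median of the gene named first in the pair, with the group means left in. Notch3 and Myh11, a pericyte gene and a smooth muscle gene, had r of 0.781 and rho of 0.769 (0.634 without the 2 farthest libraries). Pdgfrb with Cspg4 had r of 0.424 without the 2 farthest libraries, and 0.961 within HF-named and 0.42 within con-named libraries. Myh11 with Cnn1 had r of 0.428 without the 2 farthest libraries, and 0.89 within HF-named and 0.864 within con-named libraries. Abcc9 ran opposite to Acta2 (r -0.414, and -0.771 after the group means were removed). Within the groups r was -0.713 in HF-named and -0.85 in con-named libraries. With the group means left in, r was 0.0594 without the 2 libraries farthest in Abcc9.

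The mean of the z-scored genes summarised each library, and HF-1 was the highest for both the pericyte genes (1.17 SD) and the smooth muscle genes (1.95 SD). Next came con-2 for the pericyte genes (0.87 SD, while its smooth muscle value was -0.24 SD) and con-5 for the smooth muscle genes (0.99 SD, while its pericyte value was -0.12 SD). Among 12726 other named genes tested, those most like the pericyte mean over the 12 libraries included Nox4 (r 0.866), an NADPH oxidase, Fignl2 (r 0.854) and Pde5a (r 0.845), a cGMP phosphodiesterase. Those most like the smooth muscle mean were Susd5 (r 0.92), Cilp (r 0.915), Postn (r 0.894), the matrix protein periostin, and Atf5 (r 0.888). All were picked for the highest r among 12726 genes over only 12 libraries. Their r is therefore high by selection, and it was not tested. None of these genes passed the test between the groups with all libraries, and Susd5 passed without con-5 (log2 fold change 1.21, against 0.81 with it, adjusted p 0.0442). Nox4 averaged under 1 CPM in both groups, at 0.801 ± 0.239 CPM in HF-named and 0.768 ± 0.561 CPM in con-named libraries. Postn had 36.5 ± 7.1 CPM in HF-named and 30.8 ± 5.92 CPM in con-named libraries, and HF-1 was its highest library at 48.6 CPM.

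**Figure D5:**
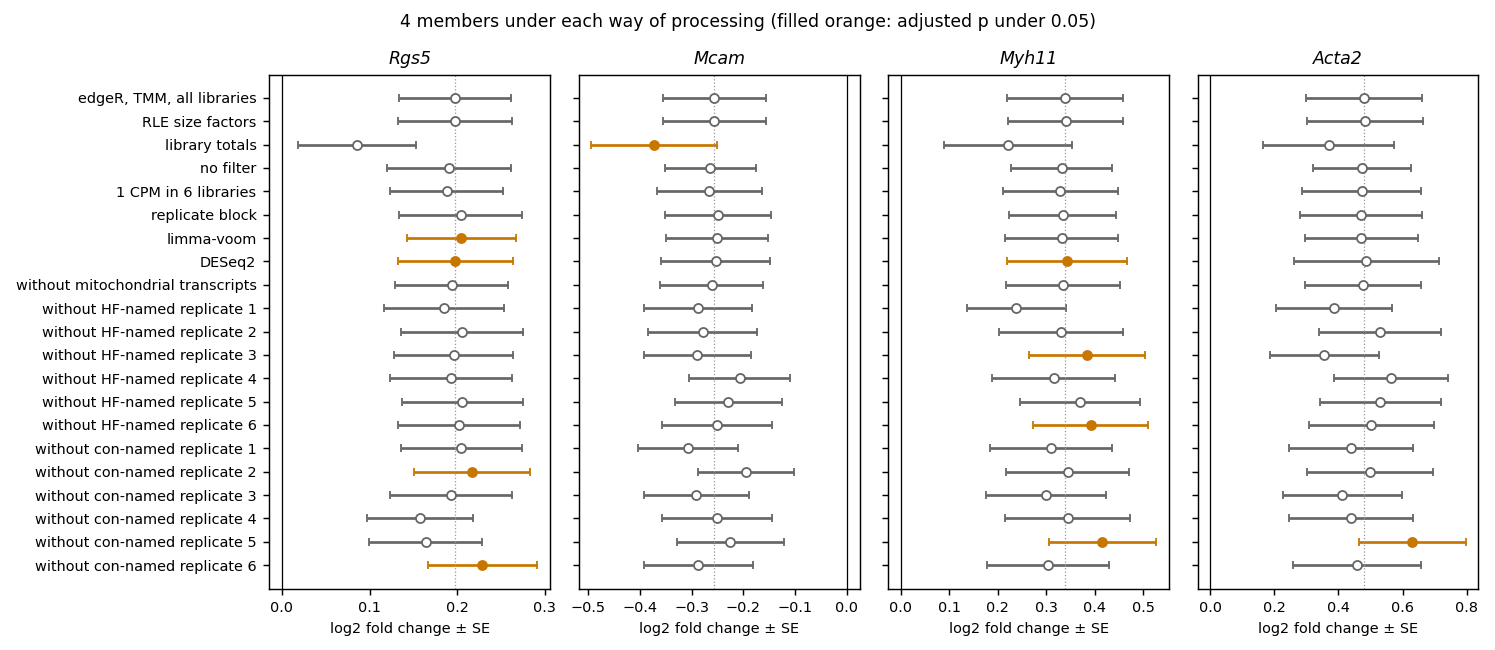
Log2 fold change ± SE of Rgs5, Mcam, Myh11 and Acta2 under each way of processing and with each library left out, filled orange where the adjusted p is under 0.05 (dotted line: edgeR with TMM and all libraries). Each gene keeps its sign throughout, and the 4 genes pass in 4, 1, 4 and 1 of the 20 other settings.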

How the data were processed

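Bulk poly-A RNA of mouse ventricle was sequenced in 12 libraries. The submitters' processing notes name HISAT2 2.0.5, HTSeq 0.9.1, cutadapt 1.15 and the build mm10. The annotation release and strand setting are not given here. The deposited table holds raw read counts per gene and FPKM values, which equal counts divided by the library's table total and by a fixed gene length. The authors' deposited comparison holds group means of scaled counts (signal), log2 fold changes and p-values. Its direction is HF over con.

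From the counts, features were filtered (filterByExpr), scaled by TMM and tested with edgeR 4.0.16 in R 4.3.3 (glmQLFit, glmQLFTest, group as the only term, two-sided). P-values were adjusted by Benjamini-Hochberg over all 15114 features tested, at 0.05, for every adjusted p not credited to another tool or the authors. CPM uses TMM-scaled totals, log2 CPM a prior count of 2, the SE is the absolute log2 fold change over the root of F, and intervals are at 95%. Alternatives were other scaling and filters, limma 3.58.1 (voom), DESeq2 1.42.0, a replicate block, no mitochondrial transcripts and each library left out in turn. The steps were tested on simulated data. There, 34% of 1.25-fold, 72% of 1.5-fold, 86% of 2-fold and 98% of 4-fold changes were called. Of 155 calls, 10 were false. A gene that did not pass may therefore still differ between the groups. Replicate pairs differed beyond counting noise, so all libraries were kept. Overlaps, coordinates and sequences come from GENCODE M21.

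The 10 genes and all lists were chosen with earlier results of these data known. Named from each list were at most 4 called genes of smallest p (otherwise the 1 of smallest p), the 2 most abundant genes of marker lists, and the 4 genes most like each mean, of which 1 is not reported here; further genes named from the lists were chosen after their values were seen.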

Additional observations from a re-analysis of the deposited data

Results flagged for a closer look

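Cnn1 in library con-5 stood apart from its group, at 2.05 CPM, with the nearest con-named library at 1.31 CPM. That gap was 0.771 of the range of the 6 libraries, above Dixon's 95% critical value for such a group. This was the only one of 20 groups looked at (10 genes in 2 groups of 6), and chance alone marks about 1 group in 20. Con-5 was also the highest con-named library for Acta2 (104 CPM) and Myh11 (76.7 CPM).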

How the results depend on the processing

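Against 2016 genes called with edgeR and TMM, 3065 were called under library totals, 1131 with the replicate block, and 1355 to 2550 with 1 library left out. Of the pericyte genes, 0 were called, but 1 was under library totals (Mcam), limma-voom and DESeq2 (both Rgs5), and 0 to 1 with 1 library left out. Of the smooth muscle genes, 0 were called, but 1 was in DESeq2 (Myh11), and 0 to 2 with 1 library left out. Of the other listed genes, 27 were called, 40 under library totals, 13 with the replicate block and 15 to 35 with 1 library left out. Their shares are given above list by list, against 13.3% of all genes tested. Under library totals the log2 fold changes of Abcc9 (-0.00885), Cspg4 (-0.10), Notch3 (-0.00782) and Nox4 (-0.12) turned negative. With 1 library left out, signs turned in Pdgfrb (-0.0783 to 0.00752), Cspg4 (-0.0613 to 0.0711), Cnn1 (-0.0441 to 0.32), Cilp (-0.079 to 0.31), Fignl2 (-0.13 to 0.0757) and Nox4 (-0.14 to 0.53). The cause of these changes was not tested.

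Same-numbered libraries showed little likeness. They correlated at -0.161 to 0.09 in their deviations from the group means, and only number 6 matched itself best. Whether the replicate numbers pair libraries by handling cannot be told from these correlations. Over single genes, 795 values under alternatives kept direction and side of the threshold, 123 lost a call, 17 gained one and 22 turned sign. Cnn1 and Tagln had only 3 to 40 counts per library, where counting error is large.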
